A study of Mus musculus with 3 samples.

Results

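Described here are 8 genes for histone variants made in the mouse testis: the linker histone genes Hist1h1a, Hist1h1t, Hils1 and H1fnt, the H2A genes Hist1h2aa, H2al2a and H2al3, and the H2B gene Hist1h2ba. They were taken by symbol from the 32285 genes of the deposited count matrices, and all 8 were found. The study counted mRNA in single cells of adult mouse testis, and its labels name a role of Tex10 in sperm formation as the question. Tex10 is known as a component of a nuclear complex for ribosomal RNA processing. All mice carried the strain label C57BL/6N. There were 2 wildtype libraries, each from the testis of 1 mouse, called wildtype replicate 1 and wildtype replicate 2. A single library, called the knockout library, pooled the testis cells of 2 conditional Tex10 knockout mice. The Cre driver and the deleted exons are not given in the sources used here. With 1 knockout library, no difference between genotypes had a replicate check, and no p-value is given.

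Histones package DNA into nucleosomes. Core histones (H2A, H2B, H3 and H4) form the particle, and linker histones (H1) bind the DNA between particles. In the male germ line the ordinary histones are replaced in steps: variants appear in spermatogonia and spermatocytes, others in spermatids, and then transition proteins (Tnp1, Tnp2) and protamines (Prm1, Prm2) take over as the sperm nucleus condenses. Of the members, Hist1h1a encodes a linker histone of dividing and early meiotic germ cells. Hist1h2aa and Hist1h2ba encode the testis H2A and H2B known as TH2A and TH2B. Hist1h1t encodes the linker histone of mid-meiosis, H1t. Hils1 and H1fnt encode spermatid linker histones. H2al2a and H2al3 encode short H2A variants of condensing spermatids, and the product of H2al2a is known for a part in the loading of transition proteins.

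Each of the 8 genes has 1 exon and is annotated as protein-coding in GENCODE M21 on GRCm38. The cluster on chromosome 13 holds 4 of them. Hist1h1t lies at chr13:23695814-23696725 and Hist1h1a at chr13:23763666-23764406, both on the plus strand. Hist1h2ba, at chr13:23933773-23934156 on the minus strand, and Hist1h2aa, at chr13:23934462-23934851 on the plus strand, are a divergent pair with 305 bases between the gene models. Hils1 lies at chr11:94967593-94968456 (plus), H1fnt at chr15:98255986-98257293 (minus), H2al2a at chr2:17996417-17996958 (minus) and H2al3 at chrX:9849703-9850255 (plus). Because the assay reads 3′ ends, near-identical copies can share reads. The share of 31-base words in the last 500 transcript bases that also occur in another gene was 44.1% for Hist1h2ba, 22.8% for H2al2a, 11.7% for Hist1h2aa, 0.426% for Hist1h1a and 0 for the other members. The values of Hist1h2ba, H2al2a and Hist1h2aa are to that extent uncertain. Genes on the opposite strand overlap Hils1 (Sgca) and Hist1h2aa (Gm44344), and whether strand was used in counting is not given in the sources used here.

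The bases before the start of 3 members are shown because Hist1h2aa and Hist1h2ba moved together in the data below, and because Hist1h1a and Hist1h1t, which peaked at different stages, carry the same run of bases close to their starts. All 8 members were matched in the RefSeq promoter table (GRCm38.p6), and each sequence is the 250 bases before the RefSeq start, 5′ to 3′ on the plus strand. Capitals mark 5 motifs, searched on both strands. The CCAAT box is named by its letters and is read on the other strand as ATTGG. The TATAAA motif is the usual core of a promoter's TATA box, which on the other strand is spelled TTTATA. The octamer, bound by POU factors, was searched as ATTTGCAT and, for the other strand, in the reversed spelling ATGCAAAT. The core of the cyclic AMP response element was searched as TGACG and, for the other strand, in the reversed spelling CGTCA. The H1 box, known from linker histone genes, was searched as AAACACA and, for the other strand, in the reversed spelling TGTGTTT.
Hist1h2aa, chr13:23934187-23934436: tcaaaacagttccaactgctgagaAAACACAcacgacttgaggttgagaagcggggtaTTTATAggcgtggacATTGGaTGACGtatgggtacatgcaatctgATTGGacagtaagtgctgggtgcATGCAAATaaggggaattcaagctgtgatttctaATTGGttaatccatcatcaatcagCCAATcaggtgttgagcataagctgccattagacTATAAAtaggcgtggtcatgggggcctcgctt
Hist1h1a, chr13:23763418-23763667: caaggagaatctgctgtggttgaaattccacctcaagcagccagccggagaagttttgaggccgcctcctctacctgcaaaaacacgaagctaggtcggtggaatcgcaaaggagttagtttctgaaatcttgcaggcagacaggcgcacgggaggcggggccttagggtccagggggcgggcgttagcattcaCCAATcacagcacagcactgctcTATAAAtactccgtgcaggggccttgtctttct
Hist1h1t, chr13:23695561-23695810: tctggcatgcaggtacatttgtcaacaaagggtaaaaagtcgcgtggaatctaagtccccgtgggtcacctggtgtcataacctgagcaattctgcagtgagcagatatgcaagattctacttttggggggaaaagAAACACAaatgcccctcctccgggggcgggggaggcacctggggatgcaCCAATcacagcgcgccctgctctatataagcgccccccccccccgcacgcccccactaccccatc

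The window of Hist1h2aa shares 220 bases with that of Hist1h2ba, so the pair is shown once. It held 4 CCAAT boxes, with first bases 177, 147, 90 and 66 bases before the start of Hist1h2aa. The TATAAA motif lay at 192 and 32 bases and the octamer at 124 bases. The TGACG core lay at 171 bases and the H1 box at 226 bases. Hist1h1a held a CCAAT box at 56 bases and the TATAAA motif at 33 bases before its start. Hist1h1t held a CCAAT box at 65 bases and the H1 box at 114 bases. Of 32851 RefSeq windows of this length, 33.9% held the CCAAT box, 12.4% the TATAAA motif, 1.60% the octamer, 17.8% the cyclic AMP core and 6.25% the H1 box. Hist1h1a and Hist1h1t shared the run CACCAATCACAGC, which begins 58 and 67 bases before their starts, contains their CCAAT box and was found in 7 of the 32851 windows. The windows of the spermatid members held fewer of these letters: a CCAAT box in Hils1 at 203 bases, the cyclic AMP core in H1fnt at 180 bases, the TATAAA motif in H2al3 at 27 bases, and none of the 5 in H2al2a. These matches describe the letters of the windows and do not show that a factor binds there.

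After filtering, 7456 cells of wildtype replicate 1, 7634 of wildtype replicate 2 and 10993 of the knockout library were kept. Of these, 57.1%, 42.6% and 65.9% fell in clusters of low UMI count (a UMI marks 1 captured molecule), which were set aside. The deeper germ cells, 3074, 4240 and 3561 in the same order, were grouped as spermatogonia, early spermatocytes, late spermatocytes, round spermatids and elongating spermatids by fixed marker genes. They were also ordered by diffusion pseudotime from spermatogonia onward into 30 bins of about 363 cells. Bins 1 and 2 were mainly spermatogonia, bins 3 to 7 early spermatocytes, bins 8 to 14 late spermatocytes, bins 15 to 17 round spermatids and bins 18 to 30 elongating spermatids. Histone genes were left out of the clustering and the ordering. The median UMI count of an ordered germ cell was 16673.5, 12475.5 and 21326. The barcodes shared between libraries numbered 28 (wildtype against wildtype), 30 and 27 (each wildtype library against the knockout library). Levels below are counts-per-million (CPM), the UMIs of a gene over all UMIs, summed over the cells of a library in a class or bin, always in the order wildtype replicate 1, wildtype replicate 2, knockout. Intervals and limits at 0 counts cover counting error only, and levels of the members are not compared with each other.

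Tex10 itself was at 45.2, 41.0 and 35.2 CPM over all kept cells, so that the knockout library stood at 81.7% of the wildtype mean. In spermatogonia it was at 143, 123 and 131 CPM, with the knockout library between the wildtype libraries, and in round spermatids at 24.3, 24.3 and 17.4 CPM. A 3′ count reads the gene's 3′ end and does not see a deletion of other exons, so it does not check the label.

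Along the ordering the onsets of the 8 members ran from spermatogonia (bin 2) to elongating spermatids (bin 19), and were alike in the 3 libraries. Their peaks ran from bin 3, shared by Hist1h1a, Hist1h2aa and Hist1h2ba, to bin 27. A member's onset is the first bin of the unbroken run up to its peak in which a library reached 50% of its own peak, and its loss is the first later bin below that level. Hist1h1a came first, with its onset at bin 2, and Hist1h2aa and Hist1h2ba followed at bin 3. Hist1h1t had its onset at bin 7. Hils1 had its onset at bin 16, 15 and 16, H2al3 at bin 18, 17 and 17, H1fnt at bin 18 in each library and H2al2a at bin 19 in each. The order of H2al3 and H1fnt depends on the level chosen: at 50% of the peak they shared bin 18 in wildtype replicate 1 and H2al3 came first in the others, while at 25% H1fnt (bin 16) came before H2al3 (bin 17) in each library. For 8 of 8 members the onset, and also the loss, fell within 1 bin in the 3 libraries, and the class of highest level was the same. The peak bin and the highest class did not always match. Hist1h1a was highest in the spermatogonia class but peaked in bin 3, where 86.2% of cells were early spermatocytes. Hils1 was highest in the round spermatid class but peaked in bin 19, a bin of elongating spermatids. The plot of spans sets the members beside reference genes placed in the same way. Stra8, which marks entry into meiosis, had its onset at bin 3, its peak at bin 3 and its loss at bin 4, as did Hist1h2aa and Hist1h2ba. Hist1h1t had the same onset and loss bins (7 and 10) as Piwil1, a piRNA-pathway gene of pachytene spermatocytes. Hils1 had its onset after the acrosomal gene Acrv1 (bin 13) and before Tnp2 (bin 18). H1fnt had the same onset bin as Tnp2, and H2al2a was lost after Prm1, whose loss was at bin 28.

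**Figure D1:**
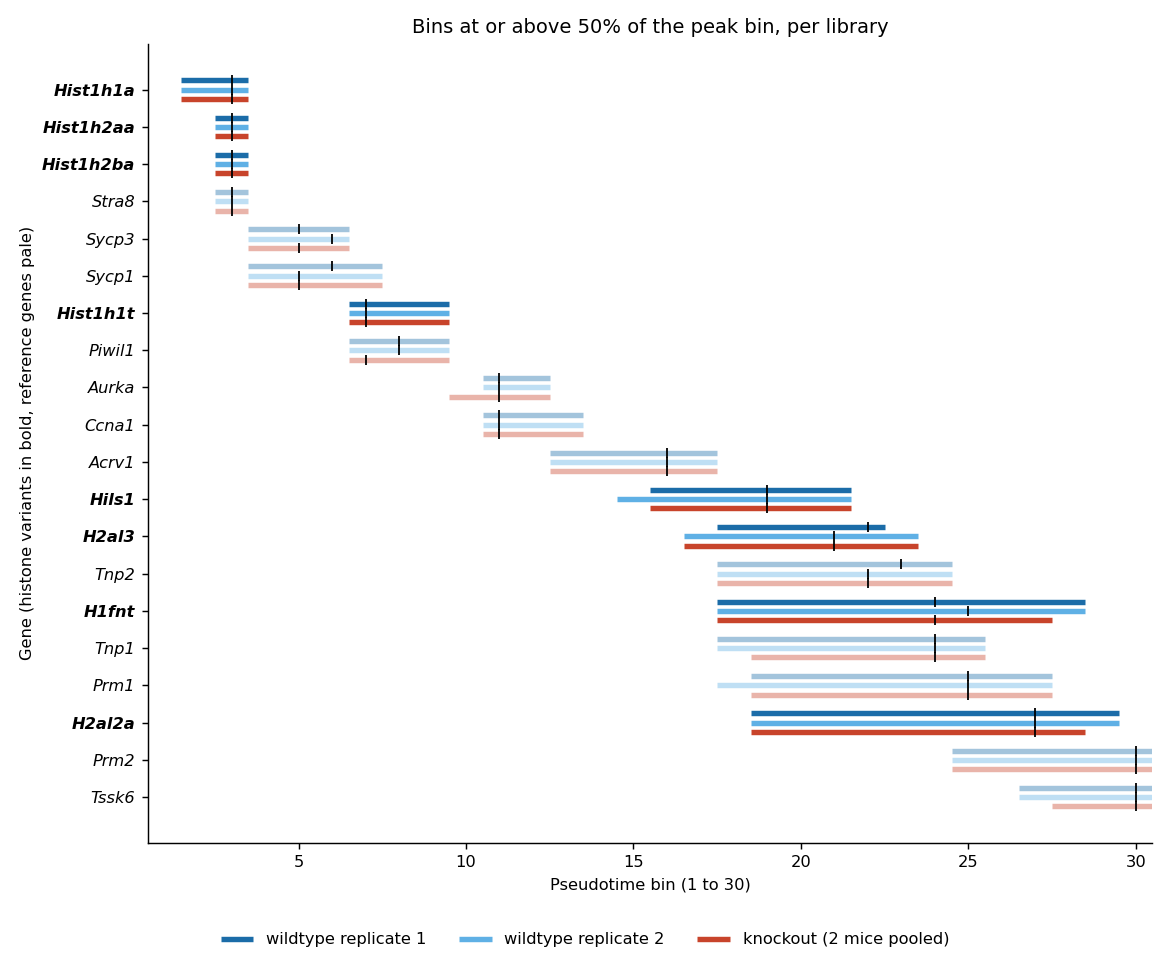
Spans of pseudotime bins (horizontal axis, 1 to 30) in which each gene was at or above 50% of its own peak bin, with 1 bar per library and a tick at the peak bin. The 8 histone variant genes are in bold and 12 reference genes are pale. The members run from Hist1h1a, at bins 2 and 3, to H2al2a, from bin 19, with like bars in the 3 libraries.

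**Figure D2:**
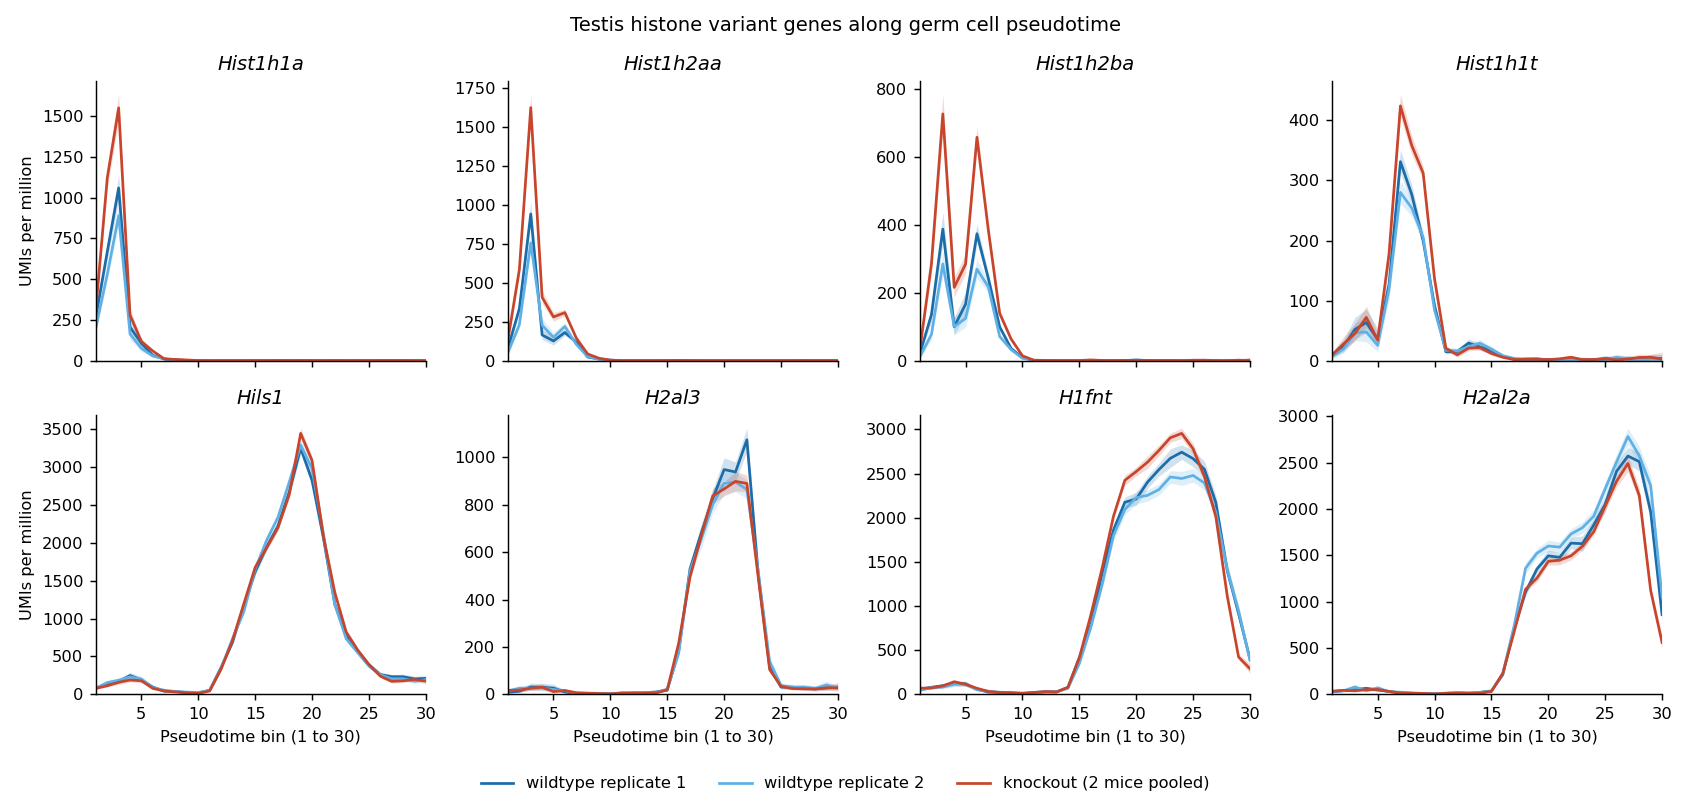
Level in counts-per-million (vertical axis, from 0) of each histone variant gene in the 30 pseudotime bins, with 1 line per library and bands for exact 95% Poisson intervals. The knockout line lies above both wildtype lines at the peaks of Hist1h1a, Hist1h2aa, Hist1h2ba and Hist1h1t, and below both at bin 29 for H1fnt and H2al2a.

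Hist1h1a, the linker histone gene of the earliest cells, was already at 269.5, 203 and 318 CPM in bin 1. It reached 668, 530.0 and 1121 CPM in bin 2 and peaked in bin 3 at 1059, 889 and 1550.5 CPM. In bin 4 it was at 205, 163 and 279 CPM. The knockout library was the highest of the 3 in each of these 4 bins, and all 3 libraries shared the steep drop after bin 3. In later bins little was left: from bin 10 on, no library was above 1.43 CPM.

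Hist1h2aa, the TH2A gene, was at 333, 231 and 586 CPM in bin 2, peaked in bin 3 at 942, 757 and 1626 CPM and was at 165, 227 and 407 CPM in bin 4. In each library bin 3 was the only bin at or above 50% of the peak. A smaller local high followed in bin 6, at 180.3, 219 and 308 CPM.

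Hist1h2ba, the TH2B gene that shares its upstream region with Hist1h2aa, peaked in bin 3 at 388, 285 and 727 CPM. It was at 99.7, 101 and 216 CPM in bin 4 and was high again in bin 6, at 374, 269.7 and 658 CPM. In bin 7 it was at 242, 217 and 385 CPM. The profile of Hist1h2ba thus had highs at both bin 3 and bin 6 in each library, and its loss at bin 4 describes only the dip between them. Across the 30 bins the levels of the pair, on the log2(CPM + 1) scale averaged over libraries, correlated at r = 0.97 (n = 30 bins, which share libraries, depth and the ordering). Hist1h1a and Hist1h2aa correlated at r = 0.94.

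Hist1h1t, the mid-meiotic linker histone gene, was at 127, 119 and 178 CPM in bin 6 and peaked in bin 7 at 331, 280.2 and 424 CPM. It was at 199, 205 and 312 CPM in bin 9 and at 91.7, 83.8 and 136 CPM in bin 10. The knockout library was the highest from bin 6 to bin 11. In bin 11 the gene was at 14.6, 17.2 and 20.4 CPM, and in bin 13 the knockout library was the lowest, at 29.2, 23.3 and 20.7 CPM. Across bins its profile ran opposite to that of H2al2a, with r = -0.86 over the same 30 bins.

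Hils1 was the earliest of the 4 spermatid members. It was at 55.3, 54.7 and 45.9 CPM in bin 11 and at 1170, 1089 and 1192 CPM in bin 14. Late spermatocytes made up 58.0% of the cells of bin 14, the last bin in which they were the main class. Over the whole late spermatocyte class Hils1 was at 160, 226 and 153 CPM. It peaked in bin 19 at 3243, 3282 and 3437 CPM and was at 1188, 1184 and 1343 CPM in bin 22. Its transcripts thus first passed 10% of the peak in late spermatocyte bins (12, 12 and 13), before the other 3 spermatid members did so in bins 15 to 17.

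H2al3, the X-linked short H2A gene, was at 18.4, 23.1 and 19.9 CPM in bin 15 and at 529, 520.4 and 495 CPM in bin 17. It was highest in bin 22 in wildtype replicate 1, at 1073 CPM, and in bin 21 in the others, at 895 and 898 CPM. By bin 24 it was at 116, 139 and 105 CPM. Its span was short beside those of H1fnt and H2al2a, with the loss at bin 23, 24 and 24.

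H1fnt, a spermatid linker histone gene, was at 81.7, 70.6 and 80.5 CPM in bin 14 and peaked late, at bin 24, 25 and 24. In bin 24 it was at 2742, 2444 and 2954 CPM. It was still at 1403, 1410.3 and 1117 CPM in bin 28. Its loss fell at bin 29 in both wildtype libraries and at bin 28 in the knockout library.

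H2al2a was the last to peak. It was at 38.4, 35.2 and 32.7 CPM in bin 15, at 712, 741 and 676 CPM in bin 17 and at 2571, 2781 and 2489.7 CPM in bin 27, the peak in each library. In the final bin it was at 861, 1053 and 561 CPM, and its loss fell at bin 30, 30 and 29. H1fnt and H2al2a correlated at r = 0.96 over the bins.

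Between genotypes, the 4 early members were higher in the knockout library than in either wildtype library in the classes where they peak, most of all Hist1h2ba and Hist1h2aa, and the 4 spermatid members lay close to the wildtype libraries. In early spermatocytes, Hist1h2ba was at 261 CPM in wildtype replicate 1 (exact 95% Poisson interval 249.6 to 273), at 212 CPM in wildtype replicate 2 (201 to 223) and at 454 CPM in the knockout library (441 to 467). The log2 ratios of knockout over wildtype, on the CPM + 1 scale, were 0.80 and 1.10, against -0.30 between the wildtype libraries. Hist1h2aa in the same class was at 206, 214 and 348 CPM, with log2 ratios of 0.75 and 0.70. The wildtype intervals of Hist1h2ba did not overlap each other either, so the spread between libraries exceeds counting error.

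In spermatogonia, Hist1h2ba was at 71.7, 46.6 and 119.6 CPM, with log2 ratios of 0.73 and 1.34, and here the wildtype libraries themselves differed by -0.61. Hist1h2aa was at 183, 146 and 280.1 CPM, with log2 ratios of 0.61 and 0.93. Hist1h1a, whose highest class is spermatogonia, was at 431, 366 and 566 CPM there, with log2 ratios of 0.39 and 0.63, and at 128, 133 and 182 CPM in early spermatocytes. For these 3 genes the knockout library was above both wildtype libraries in both classes. In late spermatocytes Hist1h2ba was at 21.1, 16.6 and 35.0 CPM, with log2 ratios of 0.70 and 1.03.

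Hist1h1t was at 206, 182 and 249 CPM in early spermatocytes, with log2 ratios of 0.27 and 0.45, and at 112, 103 and 164 CPM in late spermatocytes, with log2 ratios of 0.55 and 0.66. In round spermatids its order was the other way, at 9.29, 12.1 and 7.76 CPM.

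**Figure D3:**
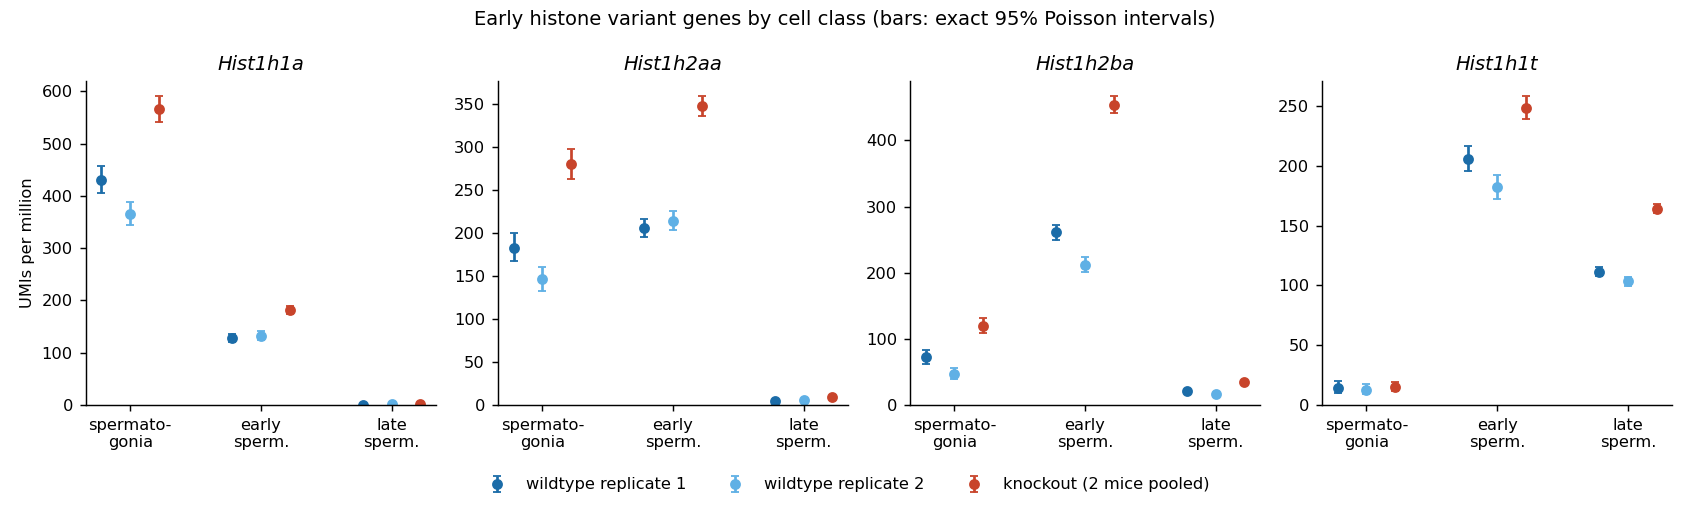
Level in counts-per-million (vertical axes, from 0) of the 4 early members in spermatogonia, early spermatocytes and late spermatocytes, with 1 point per library and bars for exact 95% Poisson intervals. The knockout point is the highest in all 3 classes of Hist1h1a, Hist1h2aa, Hist1h2ba and Hist1h1t, and Hist1h2ba stands at 454 against 261 and 212 in early spermatocytes.

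A size rule was set for such differences: a change of at least 2-fold in the same direction against each wildtype library, a log2 ratio no less than 2 times that of one wildtype library over the other, and 20 CPM or more in a library. No member passed it in any class. Without wildtype replicate 1, the condition on the ratio between wildtype libraries always holds, which leaves the 2-fold change and the CPM minimum. Hist1h2ba passed these against wildtype replicate 2, with log2 ratios of 1.34 in spermatogonia, 1.10 in early and 1.03 in late spermatocytes. The share of all genes that pass in this setting is not given here. Under the full rule with both wildtype libraries, 0.351% of all tested genes passed in spermatogonia, 0.262% in early and 0.72% in late spermatocytes. The share was 1.14% in round spermatids, 1.32% in elongating spermatids and 2.33% in myoid cells of the tubule wall. Members with at least 20 CPM in a library, and so tested, numbered 7 in spermatogonia, 7 in early spermatocytes and 4 in each of the other classes. At a level of 1.5-fold above each wildtype library, Hist1h2aa and Hist1h2ba passed in spermatogonia (0.931% of tested genes) and in early spermatocytes (0.422%), and Hist1h2ba passed in late spermatocytes (0.837%). The knockout library was above both wildtype libraries for 5 of 7 tested members in spermatogonia (33.4% of genes) and for 5 of 7 in early spermatocytes (43.7%). In late spermatocytes this held for 2 of 4 (43.1%), in round spermatids for 1 of 4 (39.2%) and in elongating spermatids for 2 of 4 (53.8%). The median log2 ratio over the tested members was 0.36 in early spermatocytes and 0.17 in spermatogonia. Over all tested genes it was 0.02 and -0.01. Tested members in both classes include spermatid members, whose levels there are read below as background. The members above both wildtype libraries thus include H1fnt and H2al2a in spermatogonia and H1fnt in early spermatocytes. The spermatogonia median is the value of H1fnt. In elongating spermatids the members' median was 0.05 and that of all genes 0.08.

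Depth and mitochondrial share differed along with these ratios. The median UMI count per early spermatocyte was 7637, 6391 and 9814, and the median mitochondrial share 5.04%, 5.50% and 4.38%. In spermatogonia the median UMI count was 11082, 8374 and 14594. The knockout library was the deepest and wildtype replicate 2 the shallowest, which is also the order of Hist1h2ba. The part of the mitochondrial share in the result was not tested. To set the libraries at equal depth, each cell of bin 3 was thinned to 2000 UMIs. The share of cells with a Hist1h2ba UMI was then 52.4% of 105 cells, 43.3% of 150 cells and 72.5% of 102 cells, where the unthinned shares were 82.9%, 75% and 95.1%. For Hist1h2aa the thinned shares were 75.2%, 67.3% and 86.3%, and the unthinned ones 92.4%, 89.1% and 94.1%. At this depth 6 cells of wildtype replicate 2 were left out and none of the others. In peritubular myoid cells, a cell type of the tubule wall that should lack both genes, 0 of 94, 0 of 88 and 0 of 86 thinned cells had a Hist1h2aa UMI, which allows shares of up to 3.19%, 3.41% and 3.49%. For Hist1h2ba the counts were 0, 0 and 1 cell. The median UMI count was 6078, 5246 and 8274.5 per cell of bin 3 and 6006.5, 5275.5 and 7252 per myoid cell. Both thinned shares lay far above that background and were highest in the knockout library. Exact 95% intervals over cells were 42.4% to 62.2%, 35.3% to 51.7% and 62.8% to 80.9% for Hist1h2ba. For Hist1h2aa they were 65.9% to 83.1%, 59.2% to 74.8% and 78.0% to 92.3%. These intervals cover the sampling of cells within a library. They leave out the spread between libraries and mice, so they do not compare the genotypes. Thinned shares of Hist1h1a in bin 3 were closer, at 82.9%, 73.3% and 85.3%. Those of Hist1h1t in its peak bin 7 were 37.8%, 38.7% and 56.1%.

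The same order held within bins. In bin 2, Hist1h1a, Hist1h2aa and Hist1h2ba were at least 1.5-fold above each wildtype library (1.75% of tested genes), and in bin 3 this held for Hist1h2aa and Hist1h2ba (2.79%). In bin 6 it held for Hist1h1a and Hist1h2ba (0.798%) and in bin 7 for Hist1h2ba (0.491%). The share of genes was counted in bins 2, 3, 6, 7, 28 and 29 only. Hist1h1a, Hist1h2aa and Hist1h2ba were also highest in the knockout library in bin 4, at the levels given above. No share of genes was counted for that bin. The log2 ratios of Hist1h2ba were 0.91 and 1.35 in bin 3 and 0.81 and 1.28 in bin 6. Stra8, which peaks in the same bin 3, was at 1362, 1504 and 1672 CPM there.

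Among the spermatid members, Hils1 was at 1890, 1921 and 1870 CPM in round spermatids and at 1495, 1354 and 1536 CPM in elongating spermatids. H2al3 was at 239, 205 and 234 CPM in round and at 518, 458 and 482 CPM in elongating spermatids, with the knockout library between the wildtype libraries in both classes. H1fnt was at 2145, 2032 and 2352 CPM in elongating spermatids, with log2 ratios of 0.13 and 0.21. H2al2a was at 1664, 1848 and 1563 CPM there, with log2 ratios of -0.09 and -0.24. None of these 4 genes was at least 1.5-fold above each wildtype library in round or elongating spermatids (1.36% and 2.05% of tested genes), and none was that far below (1.52% and 1.32%).

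The last bins differed from the classes as a whole. In bin 29, H1fnt was at 915, 944 and 424 CPM, with log2 ratios of -1.11 and -1.15 against 0.05 between the wildtype libraries. It passed the size rule there, as did 4.77% of the tested genes. H2al2a was at 1967, 2251 and 1120.5 CPM in the same bin, with log2 ratios of -0.81 and -1.01. Both genes were at least 1.5-fold below each wildtype library, and so were 10.8% of the tested genes in that bin. Up to bin 27 the log2 ratios of H1fnt lay between -0.16 and 0.60, and in bin 30 they were -0.46 and -0.41. The protamine gene Prm1, lost at bin 28, was at 33946, 34035 and 19899 CPM in bin 29. Prm2, which peaked in the last bin, was at 160442, 154945 and 169547 CPM, and the late kinase gene Tssk6 at 6551, 5472 and 7655 CPM. Bin 29 held 86, 122 and 155 cells, and bin 30 held 112, 209 and 41. Within the last bins, the position of the knockout cells along the ordering and the level of these genes cannot be told apart.

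**Figure D4:**
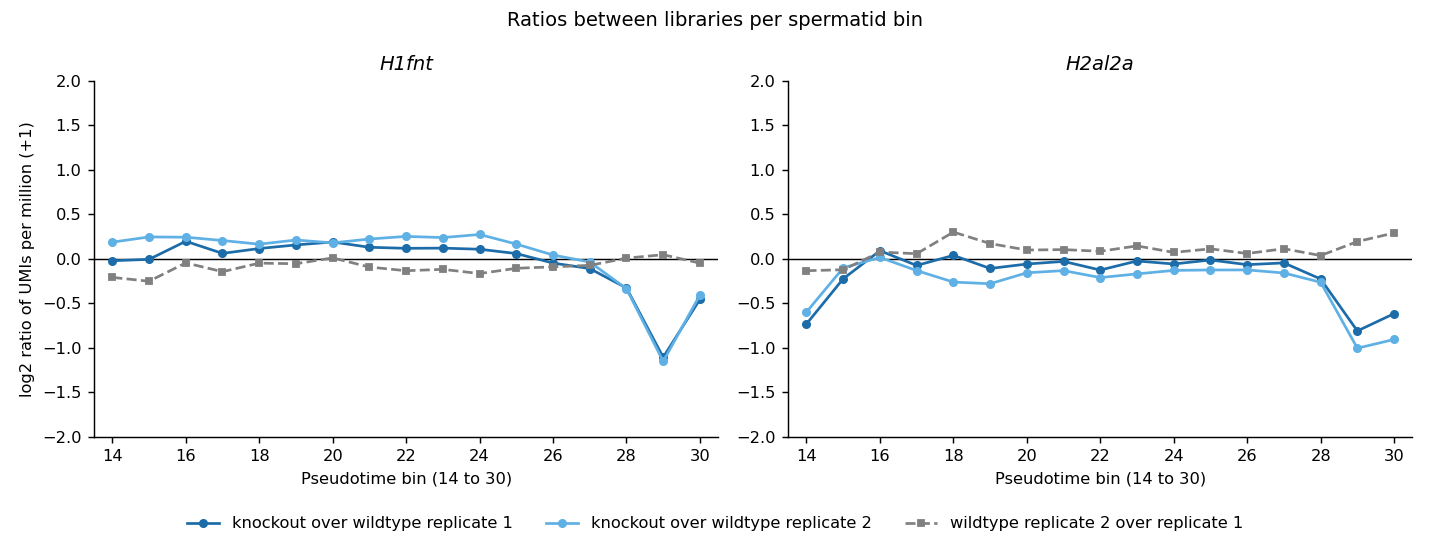
Log2 ratios of counts-per-million (+1) between libraries in bins 14 to 30 for H1fnt and H2al2a: knockout over each wildtype library, and wildtype replicate 2 over replicate 1 in grey. In bin 29 the knockout ratios reach -1.11 and -1.15 for H1fnt and -0.81 and -1.01 for H2al2a.

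Spermatid members had UMIs in cells outside the spermatid classes, while the early members had few or none in somatic cells. In peritubular myoid cells Hils1 was at 161, 229 and 200.3 CPM, H1fnt at 88.2, 114 and 128 CPM, H2al2a at 67.0, 70.8 and 61.4 CPM and H2al3 between 28.2 and 30.7 CPM. The class levels of these 4 genes in spermatogonia and early spermatocytes were below their myoid levels in each library and are read here as background. In bin 4, the early spermatocyte bin in which Hils1 was highest, it was at 249, 232 and 190.1 CPM. This was above the myoid level in both wildtype libraries and below it in the knockout library. In Leydig cells, another somatic cell type, Hils1 was at 323, 338 and 144 CPM, on 32, 39 and 205 UMIs. Against the Leydig level, bin 4 was thus lower in both wildtype libraries and higher in the knockout library. Hist1h1a and Hist1h2aa had 0 UMIs in myoid cells, which allows levels of up to 5.29, 6.43 and 4.85 CPM. In a low-UMI cluster led by markers of elongating spermatids, Hils1 was at 428, 452 and 445 CPM, H1fnt at 317, 277 and 349 CPM, H2al2a at 164, 137 and 159 CPM and H2al3 at 49.2, 55.0 and 59.3 CPM. Another low-UMI cluster, with Hist1h1t among its leading genes, held that gene at 198, 92.9 and 256 CPM.

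For each member the genes with the most similar profile over the 30 bins were sought among 8611 genes (Pearson r of log2(CPM + 1), mean of the libraries). Hist1h1a was most like Adam10, 2410002F23Rik and Ehmt1 (the first at r = 0.99), and Hist1h2aa was most like Rock2, Cers5 and Rbpj (0.99). Hist1h2ba was most like Zdhhc13 (0.98), and the meiotic crossover gene Ccnb1ip1 was also among its nearest genes. Hist1h1t was most like 4930579G24Rik, Ift80 and Rapgef1 (0.97). Of the spermatid members, Hils1 was most like Tmco2, 1700061N14Rik and Cylc1 (0.99), and H1fnt was most like Tex35, Slfn5os and Tctex1d1 (0.99). H2al2a was most like Ccsap, 1700096J18Rik and Arhgef6 (0.997). H2al3 was most like 1700065J18Rik, 1700122H20Rik and Fbxo39 (0.97). No nearest gene of any member was itself on the histone lists.

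Other histone genes were read from 4 lists for comparison. Of 7 somatic linker histone genes, 4 reached 20 CPM in spermatogonia and the same number in early spermatocytes. In both classes the knockout library was above both wildtype libraries for 4 of 4 (33.4% and 43.7% of all tested genes). Hist1h1e, one of them, was at 44.3, 41.9 and 107 CPM in early spermatocytes, with log2 ratios of 1.25 and 1.33, and passed the size rule. Hist1h1c was at 26.1, 35.9 and 65.4 CPM in that class and did not pass. Both genes, and H1fx, peaked in bin 3 like Hist1h1a: Hist1h1e at 197, 161 and 511 CPM, Hist1h1c at 159.9, 184 and 433 CPM, and H1fx at 931, 748 and 1021 CPM. In myoid cells Hist1h1e was higher in the knockout library, at 10.6, 12.9 and 56.5 CPM, on only 6, 6 and 35 UMIs. Hist1h1c was lower there, at 201, 221 and 79.2 CPM, and both genes passed the rule. Hist1h2bc (591, 585 and 284 CPM), Hist2h3c1 and H2afy2 of the core histone lists also passed in myoid cells, lower in the knockout library. Of 55 replication-dependent core histone genes, 6 were tested in spermatogonia, with the knockout library above both wildtype libraries for 3 and below both for 2. Hist1h2ap was the 1 that passed the rule there, lower in the knockout library, at 162, 123 and 32.5 CPM with log2 ratios of -2.28 and -1.89. Of the 4 tested in early spermatocytes none passed, and the knockout library was above both wildtype libraries for 3. Hist1h4d and Hist1h2bm peaked in bin 3, at 182, 98.3 and 253 CPM and at 122, 81.7 and 232 CPM. Hist1h2bp peaked later, in bin 16, at 619.7, 556 and 567 CPM. Summed over that list, the level in bin 3, the peak bin of Hist1h1a, Hist1h2aa and Hist1h2ba, was 859, 607 and 1027 CPM. The sum was high again in bin 16, the peak bin of Hist1h2bp, at 655, 587 and 586 CPM. Of 18 further sperm and testis variants, 3 reached 20 CPM and were tested in spermatogonia, 1 in early and 1 in late spermatocytes. In round spermatids 5 were tested, in elongating spermatids 5 and in myoid cells 2, and none passed in any class. Among them, 1700024P04Rik (H2bl1 in RefSeq, an H2B variant gene) peaked in bin 27 with H2al2a, at 3205, 3217 and 2603 CPM. H2al1n peaked in bin 26 at 258, 269 and 273 CPM, and Hist1h4a in bin 17 at 238, 231 and 218 CPM. Of 9 replacement core variants, between 4 and 8 were tested in each germ cell class, and none passed there. H3f3b was highest in bin 7, at 6609, 6112 and 6589 CPM, H2afz in bin 9, at 2245, 2114 and 2106 CPM, and H3f3a in bin 15, at 1916, 1815 and 1776 CPM. The 3′ ends of these histone genes can share reads with near-identical copies, so their values are uncertain in the same way.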

How the data were processed

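Single-cell mRNA of 3 testis libraries was analysed. The authors deposited raw UMI counts per gene and cell barcode, made with Cell Ranger 4.0.0 on mm10, per the submitters' processing notes, which also list Seurat 4.0.5. The deposited matrices held 9967, 10153 and 12918 barcodes and 93418341, 96001773 and 147783171 UMIs (wildtype replicates 1 and 2, knockout). The wildtype libraries differed far beyond sampling noise (chi-square 17.7 per degree of freedom over 22535 genes), so they were treated as separate samples.

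Barcodes were kept from 1000 UMIs and 500 genes upward, with a mitochondrial share of up to 10% (8134, 8337 and 12014). Scrublet's automatic threshold marked 0, 1 and 0 barcodes as doublets and so did not work. The 8% of barcodes with the highest doublet scores were left out in each library instead. Cells were clustered with scanpy 1.11.5, leidenalg 0.10.2, igraph 0.11.9, anndata 0.12.19 and scikit-learn 1.9.0: 2000 variable genes without histone genes, 30 principal components, 15 neighbours, resolution 1, giving 30 clusters. Clusters were named from marker lists, and those whose median UMI count was under 3 times the lowest count of their library were set aside as low-UMI. Diffusion pseudotime used 30 neighbours and 14 components, with each component weighted by its eigenvalue over 1 minus the eigenvalue. This form of the ordering, the scoring of clusters and the choice of germ clusters to order were set after the data had been seen.

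UMIs were summed per library and class or bin and divided by the summed total. Log2 ratios used a pseudocount of 1 CPM. The size rule replaced a test because there was 1 knockout library. Intervals are exact 95% Poisson intervals, and the limit at 0 counts is 3 counts. Genes were named by a rule: all members, 12 reference genes, the 3 most similar genes of each member (at least 50 CPM in a bin), and in the histone lists those past the size rule and those with the highest peaks. One gene that this rule names is not reported here. The replication-dependent sum was added after its values were seen. The members, lists and rules were chosen with earlier results of these data known. Scripts ran in Python 3.11.15 with numpy 2.4.6, scipy 1.17.1, pandas 2.3.3 and matplotlib 3.10.9, and were tested on simulated data. R 4.3.3 with edgeR 4.0.16 gave only the TMM factors of an alternative. No protein sequence was used here.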

Additional observations from a re-analysis of the deposited data

How the results depend on the processing

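The number of members past the size rule in a cell class was 0. It was 1 with a stricter filter on cells (Hist1h1a, in early spermatocytes) and 2 at a 1.5-fold threshold (Hist1h2aa and Hist1h2ba). It was 1 with no CPM minimum (Hist1h2ba, in myoid cells, on 1 UMI). When 1 wildtype library was left out, the wildtype-ratio condition always held and the number was 0 to 1 (Hist1h2ba passed without wildtype replicate 1). The share of all genes that passed in each of these settings is not given here, so these counts have no background beside them. It stayed at 0 without doublet removal, with low-UMI clusters named, with histone genes kept, with TMM factors, with either other pseudocount, with clusters at equal weights and with clustering seeds 1 and 2, which were added after the data had been seen. The number of members with onset within 1 bin was 7 to 8 over the alternatives, and so was that with loss within 1 bin. Hist1h2ba was the exception in both counts without doublet removal and with seed 1. H2al2a was the exception for onset with 40 bins, H1fnt for loss with clusters ordered in place of bins, and H2al2a for loss at 25% of the peak. The same peak class held for 7 members with seed 1 (not H2al3) and for 8 otherwise. The clustering and the ordering shift with the seed and with the numerical settings of the machine, so bin numbers and counts of calls are those of 1 such ordering. Under other numerical settings the counts past the size rule with the stricter filter and at 1.5-fold were higher than those given here.

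Over 12 alternatives the log2 ratio of knockout over the wildtype mean ranged from 0.80 to 1.10 for Hist1h2ba and from 0.65 to 1.01 for Hist1h2aa in early spermatocytes, from 0.18 to 0.50 for Hist1h1t in that class and from 0.39 to 0.63 for Hist1h1a in spermatogonia. It ranged from 0.07 to 0.21 for H1fnt and from -0.27 to -0.09 for H2al2a in elongating spermatids. The sign changed in 4 alternatives for Hils1 in round spermatids (-0.04 to 0.08) and in 2 for H2al3 in elongating spermatids (-0.12 to 0.07). The number of cells limits single bins: bin 3 holds 105, 156 and 102 cells and bin 30 holds 112, 209 and 41. No paired analysis was possible because there was 1 knockout library, which holds 2 mice.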
